A study of Mus musculus with 20 samples.

Results

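Flk1(+)/PDGFRα(+) mesoderm cells lacking the DNA methyltransferases Dnmt3a and Dnmt3b (DKO) were compared with wild-type (WT) cells of the same sort. The comparison holds 4 of the 20 Affymetrix expression arrays of the series, the 2 labelled DP from mt ES against the 2 labelled DP from wt ES, over all 18194 genes that had a probe set with a single symbol. All 4 cultures started from mouse ES cells of the 129sv/Jae J1 background that were differentiated for 4 days on type IV collagen without dexamethasone (Dex) and sorted for both receptors. Replicate 1 of each genotype came from a parental line (J1 for WT, 16aabb for DKO). Replicate 2 came from a transgenic clone of it (J1G4.2 for WT, 16G4.3 for DKO), which carries Gata4GR, a fusion of Gata4 with the glucocorticoid receptor ligand-binding domain under the CAG promoter, left inactive here because no Dex was given. The clone 16G4.3 was made from 16aabb, and each genotype is 1 line and 1 clone of it, so that genotype and line cannot be told apart. More DKO than WT cells were plated per dish and the recovery of Flk1(+) cells from DKO cultures was low under this condition, which cannot be told apart from genotype either. The labels call the arrays biological replicates and the methods name independent experiments.

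Dnmt3a and Dnmt3b place methyl groups on CpG sites that carry none, and ES cells without both lose methylation over culture. Methylated promoters are a known means of keeping germ cell and testis genes, many of them on the X chromosome, silent in somatic cells, and methylation also marks the parental copies of imprinted genes. Flk1, the VEGF receptor encoded by Kdr, and PDGFRα mark early mesoderm that gives rise to lateral plate, heart, mural and blood vessel cells. DNA methylation itself was not measured on these arrays.

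Promoter sequence is shown for 6 of the named genes. Higher in DKO cells were a germ cell helicase (Ddx4), a testis ADP/ATP carrier (Slc25a31), an X-linked homeobox gene (Rhox5) and the heart field factor Hand2. Lower were the imprinted non-coding RNA Meg3 and the basement membrane collagen Col4a1. The calls of Rhox5, Hand2 and Col4a1 depended on the arrays or probe sets used, as given below. Each run is the RefSeq sequence of GRCm38.p6 from 250 bases before to 50 bases after the start, 5′ to 3′ on the gene's strand. CpG sites, the substrate of the deleted enzymes, are in capitals. Where a gene had several listed starts, the one with the most CpG sites was taken. Ddx4 (chr13:112652261-112652560, minus strand) has 38 CpG sites, Slc25a31 (chr3:40708621-40708920, plus) 22, Rhox5 (chrX:37754358-37754657, plus) 5, Hand2 (chr8:57320733-57321032, plus) 17, Meg3 (chr12:109540746-109541045, plus) 13 and Col4a1 (chr8:11312777-11313076, minus) 37.
Ddx4: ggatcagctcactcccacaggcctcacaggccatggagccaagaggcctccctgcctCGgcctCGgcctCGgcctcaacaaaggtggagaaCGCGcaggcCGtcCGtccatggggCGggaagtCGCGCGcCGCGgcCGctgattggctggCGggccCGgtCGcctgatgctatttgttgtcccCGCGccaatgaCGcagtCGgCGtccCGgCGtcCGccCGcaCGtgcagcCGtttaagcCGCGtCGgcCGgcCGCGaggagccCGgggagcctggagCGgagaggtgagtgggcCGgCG
Slc25a31: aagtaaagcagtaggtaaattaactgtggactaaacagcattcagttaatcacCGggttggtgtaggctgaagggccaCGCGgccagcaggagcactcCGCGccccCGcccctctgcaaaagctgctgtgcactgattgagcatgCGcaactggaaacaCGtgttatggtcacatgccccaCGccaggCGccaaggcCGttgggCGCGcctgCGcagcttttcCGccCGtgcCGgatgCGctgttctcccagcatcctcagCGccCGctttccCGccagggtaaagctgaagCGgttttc
Rhox5: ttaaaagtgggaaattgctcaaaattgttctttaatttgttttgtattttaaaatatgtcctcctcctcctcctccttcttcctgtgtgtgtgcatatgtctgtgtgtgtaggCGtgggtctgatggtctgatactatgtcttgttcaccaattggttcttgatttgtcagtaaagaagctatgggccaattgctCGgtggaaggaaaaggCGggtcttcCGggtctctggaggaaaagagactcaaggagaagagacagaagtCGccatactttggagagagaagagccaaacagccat
Hand2: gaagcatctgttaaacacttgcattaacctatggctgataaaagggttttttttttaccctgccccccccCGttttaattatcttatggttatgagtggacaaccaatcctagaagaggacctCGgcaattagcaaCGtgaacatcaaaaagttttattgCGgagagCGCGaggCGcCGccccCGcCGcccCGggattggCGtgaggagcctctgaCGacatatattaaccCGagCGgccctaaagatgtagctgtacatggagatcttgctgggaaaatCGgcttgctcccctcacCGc
Meg3: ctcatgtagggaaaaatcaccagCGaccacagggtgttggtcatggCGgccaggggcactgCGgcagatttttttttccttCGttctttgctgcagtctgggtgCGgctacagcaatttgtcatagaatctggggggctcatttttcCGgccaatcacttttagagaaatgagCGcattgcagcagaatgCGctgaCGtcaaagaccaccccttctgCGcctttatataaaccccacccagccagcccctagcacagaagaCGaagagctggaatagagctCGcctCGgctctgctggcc
Col4a1: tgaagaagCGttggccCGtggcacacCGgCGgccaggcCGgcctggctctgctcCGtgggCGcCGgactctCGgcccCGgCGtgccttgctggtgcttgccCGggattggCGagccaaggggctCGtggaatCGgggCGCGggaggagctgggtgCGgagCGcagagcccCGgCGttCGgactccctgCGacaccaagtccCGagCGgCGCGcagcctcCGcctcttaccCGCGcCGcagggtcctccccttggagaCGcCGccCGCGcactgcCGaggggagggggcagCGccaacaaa

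DKO Flk1(+) cells had 72 genes higher and 55 lower than WT cells, which is 0.396% and 0.302% of the genes tested. Calls come from a limma fit to all 20 arrays and required a 2-fold or larger change with a Benjamini-Hochberg adjusted p, taken over all genes, under 0.05. Without any threshold on size, 14.2% of all genes had both DKO arrays above both WT arrays and 18.7% had both below, and the groups did not overlap for any of the 127 called genes. Called genes that were higher were mostly at low values in WT cells: 50 of the 72 had a WT mean under the median of all genes, against 7 of the 55 that were lower. The direction of a call itself favours this contrast. By their DKO mean, 24 of the 72 and 17 of the 55 were under the median of all genes. With a replicate block for the line type the same 127 genes passed, among 130 higher and 84 lower. With only the 4 Flk1(+) arrays in the limma fit no gene passed, although 474 higher and 433 lower genes had an unadjusted p under 0.05 and the lowest adjusted p was 0.271. The calls therefore use a spread estimated over 10 groups, and the 2 Flk1(+) groups spread more than the others. The median SD of 2 arrays was 0.165 in both, against 0.0937 to 0.136 elsewhere. Genes with a 2-fold gap between replicates numbered 880 for the WT and 698 for the DKO Flk1(+) group, against 20 to 256 elsewhere. For genes that vary this much between the Flk1(+) replicates, the SE and adjusted p of the 20-array fit can be too small. With 2 arrays on each side, the smallest two-sided p of an exact permutation test is 0.333.

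The deleted genes and the sort markers were read first. Dnmt3b, at 12.03 and 11.47 on the log2 scale in the WT arrays, was at 8.11 and 7.47 in the DKO arrays, a difference of −3.96 ± 0.22 (SE, n = 2 arrays per group, limma adjusted p = 4.21e-07). Dnmt3a was at 8.81 and 8.43 in WT and at 6.49 and 6.79 in DKO cells, a difference of −1.98 ± 0.19 (limma adjusted p = 9.09e-05), and its 4 other probe sets gave differences of −4.77 to −3.52 (−3.54 with the mean of all 5). Both genes stood lower in each DKO array than in each WT array, although where the probes lie relative to the deleted exons is not given in the sources used here. Of 14 measured genes of the methylation machinery these were the only 2 called. Dnmt3l, the cofactor of the deleted enzymes, differed by 1.03 ± 0.30 (limma adjusted p = 0.124, or 0.0342 and a call with the replicate block), and Uhrf1, which guides maintenance methylation, by 0.79 ± 0.23 (limma adjusted p = 0.123). Neither passed.

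Kdr was at 11.96 and 11.75 in WT and at 12.30 and 12.23 in DKO cells, and Pdgfra at 11.90 and 12.83 against 12.26 and 11.87. Both receptors were thus near the top of the range in each array, and neither difference passed (limma adjusted p = 0.642 and 0.671). Aplnr, the apelin receptor of early mesoderm, was at 12.89 and 13.21 against 13.05 and 12.93. The 7 measured mesoderm markers had a mean of 9.68 to 10.43 per array, the 5 endothelial markers 4.64 to 5.01 and the 5 blood markers 5.27 to 5.49. The 4 epithelial markers Cdh1, Epcam, Krt8 and Krt18 had a mean of 12.02 and 9.98 in the parental and transgenic WT arrays and of 11.12 and 10.57 in the DKO arrays, so that the WT arrays lay on either side of the DKO arrays. Cdh1, encoding E-cadherin, was at 11.38 and 8.45 in WT and at 9.93 and 9.04 in DKO cells. None of 26 measured genes of the epithelial list passed, and their median difference was −0.28. The part of epithelial or less differentiated cells in the results was not tested. In bulk RNA fewer cells of a type and less RNA per cell cannot be told apart. Gata4 was at 7.99 and 8.12 against 8.73 and 8.39 and did not pass (limma adjusted p = 0.272).

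**Figure D1:**
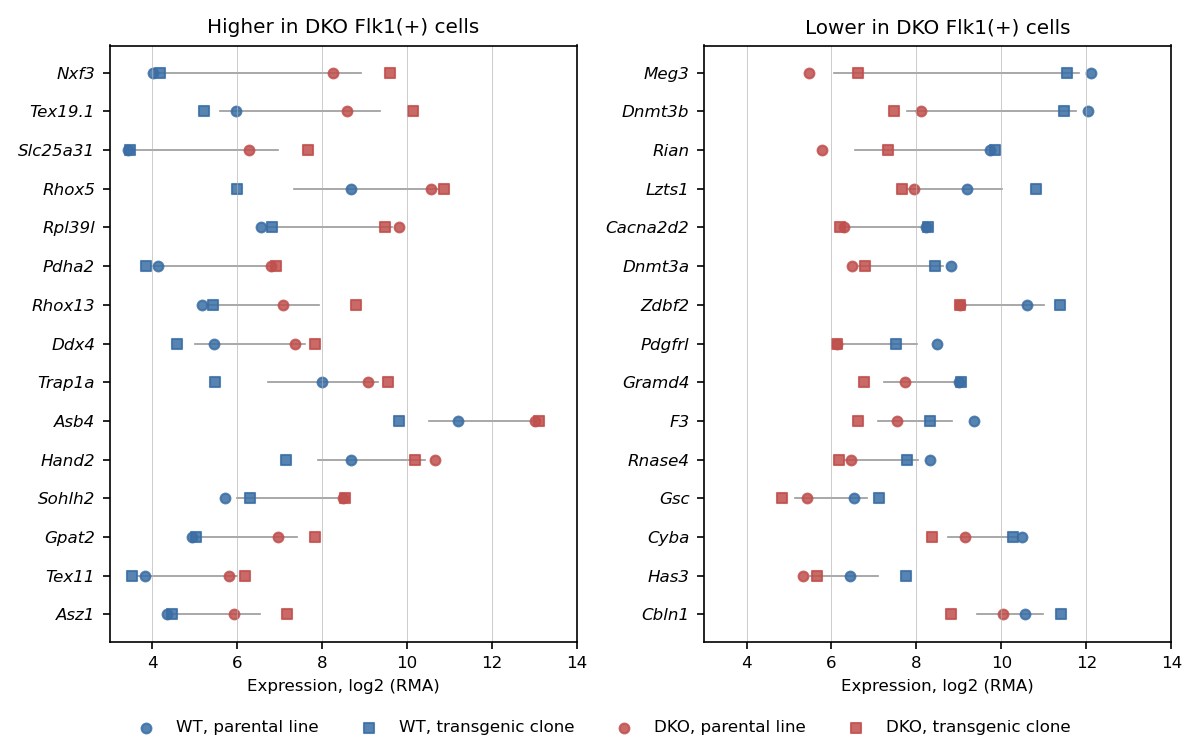
Log2 expression of named genes in the 4 Flk1(+) arrays. Each row is a gene and each point 1 array, WT in blue or DKO in red, with circles for the parental lines, squares for the transgenic clones and a line between the group means. In Nxf3 the WT points sit at 4.02 and 4.19 and the DKO points at 8.26 and 9.59, and in Meg3 the order is turned, with WT at 12.11 and 11.54 and DKO at 5.48 and 6.62.

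Genes of the germline piRNA pathway, which silences transposons in germ cells, were the list with the most genes called higher in DKO cells. Of 21 measured members 8 were higher and none was lower, with a median difference of 0.66 and a range of −0.17 to 4.82, beside a median of −0.03 over all genes. Nxf3, an X-linked member of the RNA export factor family, was at 4.02 and 4.19 in WT and at 8.26 and 9.59 in DKO arrays. Nxf3 is also counted among the X-linked testis genes below, and its part in the piRNA pathway was not examined here. It rose 28.3-fold (4.82 ± 0.35 on the log2 scale, SE, limma adjusted p = 4.99e-06), the largest increase of a named gene. Tex19.1, which restrains retrotransposons, was at 5.97 and 5.22 against 8.58 and 10.13 and rose 13.6-fold (limma adjusted p = 0.000351). Ddx4, the mouse vasa helicase whose promoter is shown above, was at 5.46 and 4.57 against 7.37 and 7.84 and rose 6-fold (limma adjusted p = 0.000112). In each of these genes both DKO arrays lay above both WT arrays with a clear gap, and the transgenic pair was further apart than the parental pair. Gpat2 (2.42), Asz1 (2.13) and Piwil2 (1.72), all required for piRNA production, rose on the log2 scale by the values given, Asz1 by 1.2 with the mean of its probe sets. Tdrkh (1.24) and Mov10l1 (1.10) rose too, but without the transgenic DKO array their differences were 0.94 and 0.72 and their calls were lost. The remaining 13 members did not pass, among them Piwil1 (0.15), Piwil4 (−0.09) and Tdrd1 (0.01).

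Genes of meiosis and germ cell identity were called less evenly. Of 40 measured members 5 were higher and none lower, and the median difference was 0.13. Besides Ddx4 these were Slc25a31, Sohlh2, Tex11 and Sycp3. Slc25a31, the testis form of the mitochondrial ADP/ATP carrier, was at 3.44 and 3.48 in WT and at 6.27 and 7.66 in DKO cells and rose 11.3-fold (3.50 ± 0.34, SE, limma adjusted p = 8.87e-05). Sohlh2, a helix-loop-helix factor of germ cells, was at 5.70 and 6.31 against 8.48 and 8.53 and rose by 2.50 ± 0.26. Sycp3, a structural protein of the synaptonemal complex, was at 4.72 and 3.51 against 5.84 and 6.29 and rose by 1.95 ± 0.28. Values of the WT arrays were low for all of these, and the DKO arrays lay closer together for Sohlh2 than for Slc25a31. Dazl, a germ cell RNA-binding protein, was at 4.01 and 4.00 in WT and at 4.15 and 6.16 in DKO cells, higher in the transgenic DKO array only, and did not pass (1.15 ± 0.45, limma adjusted p = 0.279). Sycp1 (0.15), Stra8 (0.54) and Dppa3 (0.08) did not pass either.

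Testis paralogs of housekeeping genes, copies that spermatogenic cells use in place of a somatic gene, gave 3 higher and no lower of 21 measured, with a median of 0.09. Beside Slc25a31 they were Rpl39l and Pdha2. Rpl39l, a ribosomal protein, was at 6.57 and 6.83 against 9.81 and 9.48 and rose 7.69-fold (limma adjusted p = 4.41e-05). Pdha2, the testis subunit of pyruvate dehydrogenase, was at 4.13 and 3.86 against 6.79 and 6.92 and rose 7.25-fold (limma adjusted p = 4.98e-06). These differences were of like size in both line types, 3.24 and 2.65 for Rpl39l and 2.66 and 3.05 for Pdha2. Outside the lists, and named after their values were seen, Psma8, a testis proteasome subunit (1.93), Stk31, a kinase of spermatogenic cells (1.99), Hsf2bp (1.89) and Rec114 (1.47) of meiotic recombination, D1Pas1, a testis RNA helicase (1.68), and the tudor protein Rnf17 (1.89) rose as well. Rnf17 was at 1.75 and not called without the transgenic DKO array, at 1.08 without the transgenic WT array, and at 0.68 and not called with the mean of its probe sets. D1Pas1 was at 1.44 and not called without the transgenic DKO array and at 1.41 without the transgenic WT array. Another probe set of Hsf2bp differed by −0.24, and with the mean of its probe sets the difference was 0.82 and under the 2-fold limit.

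X-linked testis genes and tumour antigens showed the largest median of the 39 lists, 2.05, with 6 of 15 measured members higher and none lower. The 6 include Nxf3 of the piRNA list and Tex11 of the meiosis list. Ddx4 and Slc25a31 are likewise shared between germline lists, so the counts of these lists are not independent. Rhox5, a homeobox gene of the reproductive cluster, was at 8.67 in the parental and 6.0 in the transgenic WT array and at 10.57 and 10.87 in the DKO arrays. It rose 10.4-fold (3.38 ± 0.61, SE, limma adjusted p = 0.0136), and its call was lost without the transgenic DKO array (3.23, limma adjusted p = 0.0833). Without the transgenic WT array the difference of Rhox5 was 2.05. Its WT arrays thus differed from each other by more than the parental pair did across genotypes, 1.90. Rhox13 was at 5.17 and 5.44 against 7.07 and 8.80 and rose 6.2-fold (limma adjusted p = 0.00367). Trap1a, the P1A tumour antigen, was at 7.99 and 5.48 against 9.07 and 9.54 (2.57 ± 0.55, limma adjusted p = 0.0362), and was not called without the transgenic DKO array (2.34) or the transgenic WT array (1.32). Tex11 (2.31) of meiotic recombination also rose. Tktl1, a transketolase-like gene (1.93), rose with a probe set that may cross-hybridise, and was not called without the transgenic DKO array (1.01) or the parental WT array (1.70), with the mean of its probe sets (0.91) or with such probe sets left out (0.74). The list also held genes whose difference was almost wholly one of the transgenic pair. Rhox6 was at 9.13 and 4.95 in WT and at 9.78 and 9.53 in DKO cells, and Mageb16 at 8.88 and 4.43 against 9.21 and 9.46. In both the parental WT array was close to the DKO arrays and only the transgenic WT array was low, and neither gene passed (limma adjusted p = 0.154 and 0.161), although both did with the replicate block (limma adjusted p = 0.0255 and 0.0424). Over the 15 genes the median difference was 0.63 in the parental pair and 3.23 in the transgenic pair. Near-identical members of such families can share probes, so that values of single members are uncertain.

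**Figure D2:**
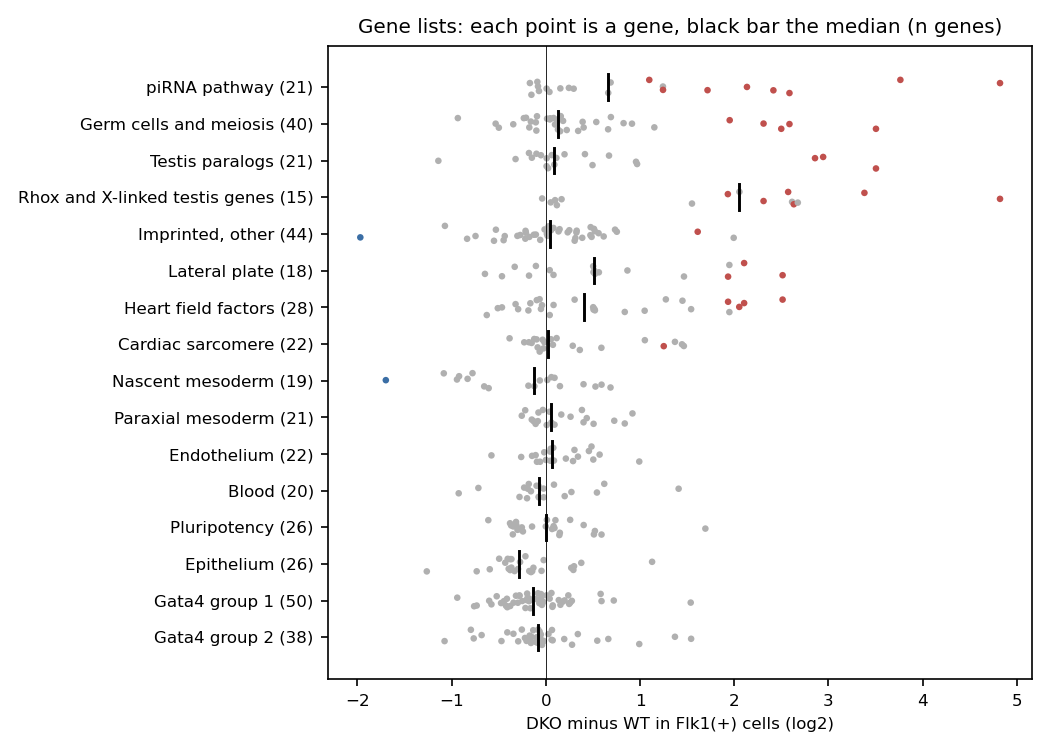
Difference DKO minus WT (log2) of the members of gene lists in Flk1(+) cells. Each point is a gene, red where called higher, blue where called lower and grey where it did not pass, and the black bar of each list is its median. The piRNA and X-linked testis lists reach to the right of 0, with medians of 0.66 and 2.05, while the endothelium and blood lists centre near 0.

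Imprinted non-coding RNAs of the Dlk1-Meg3 domain on chromosome 12 gave the largest decrease. Meg3 was at 12.11 and 11.54 in WT and at 5.48 and 6.62 in DKO cells, a 54.6-fold decrease (−5.77 ± 0.60, SE, limma adjusted p = 0.000146). Rian, its neighbour at a distance of 32.2 kb, was at 9.72 and 9.84 against 5.79 and 7.34 and fell 9.31-fold (limma adjusted p = 0.00367). Both RNAs were bright in WT cells and below the median of all genes in the parental DKO array, and all 10 other Meg3 probe sets were lower too, by −4.63 to −0.84, so that with the mean of its probe sets Meg3 differed by −2.44. The protein-coding member Dlk1 was at 6.36 and 5.72 against 6.67 and 5.66 and did not pass, and the host RNA Mirg (−0.50) did not pass. Of 44 other imprinted genes measured 1 was higher and 1 lower. Zdbf2 was at 10.59 and 11.39 in WT and at 9.01 and 9.03 in DKO cells and fell 3.92-fold (limma adjusted p = 0.000113). Mest was at 11.03 and 9.44 against 11.40 and 12.30 (1.61 ± 0.36, limma adjusted p = 0.0469). Its parental pair differed by only 0.36, and it was not called without the transgenic DKO array (1.16) or the transgenic WT array (0.81). With scan day as a block Mest was not called either (limma adjusted p = 0.0517), nor with the genes of chromosomes 8 and 11 left out (limma adjusted p = 0.0524).

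Transcription factors of lateral plate and heart field mesoderm were higher where they were called. Hand2, a helix-loop-helix factor of the heart and limb, was at 8.68 and 7.14 in WT and at 10.66 and 10.19 in DKO cells and rose 5.71-fold (2.51 ± 0.39, SE, limma adjusted p = 0.00542). Its 2 other probe sets gave 0.06 and 0.15, so that the call rests on 1 of 3. With the mean of its probe sets the difference was 0.91 and under the 2-fold limit. Isl1, a factor of the second heart field, was at 6.73 and 5.48 against 8.40 and 7.68 and rose 3.82-fold (limma adjusted p = 0.00542), with 1.84 in its other probe set. Tbx2 (2.05 ± 0.35), a T-box repressor, and Meis1 (2.10 ± 0.39), a homeobox cofactor, also rose, and neither was called without the transgenic DKO array (1.66 and 2.09). Of Meis1 the other probe sets ranged from −0.05 to 0.81, with the mean of all 3 it was at 0.96 and not called, and without the transgenic WT array it was at 1.25. In each of these factors the WT array of the parental line was nearer to the DKO arrays than that of the transgenic clone. Of 28 heart field genes 4 were called higher, and of 18 lateral plate genes 3 were, with none lower and medians of 0.40 and 0.51. The lists share members, and the 3, Hand2, Isl1 and Meis1, are among the 4. Tbx20 (1.95 ± 0.51), Foxf1 (1.47 ± 0.37) and Mef2c (1.27 ± 0.29) were on the same side and did not pass (limma adjusted p = 0.0856, 0.0733 and 0.0533). With the replicate block all of Tbx20, Foxf1 and Mef2c passed (limma adjusted p = 0.0443, 0.000251 and 0.016).

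Of 22 sarcomere genes only Myl7, the atrial myosin light chain, passed: it was at 9.09 and 8.29 against 10.04 and 9.84 (1.25 ± 0.22), and fell under the 2-fold limit without the transgenic WT array (0.85). The smooth muscle markers had a mean of 7.78 and 7.39 in WT and of 7.83 and 8.67 in DKO arrays, and none of 19 genes of that list was called. Mesp1 (0.59 ± 0.19) and 17 of the other nascent mesoderm genes did not pass. The exception was Gsc, the homeobox gene goosecoid of the anterior primitive streak, at 6.54 and 7.12 in WT and at 5.42 and 4.84 in DKO cells (−1.70 ± 0.21, SE, limma adjusted p = 0.000855). No gene of the paraxial, endothelial, blood or pluripotency lists passed. At the share of all genes, 0.698%, such short lists would hold few calls or none. Outside the lists Asb4, a ubiquitin ligase adaptor with ankyrin repeats, was at 11.21 and 9.80 in WT and at 13.01 and 13.10 in DKO cells and rose 5.83-fold (limma adjusted p = 0.00477), with 3.68 in its other probe set.

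Genes lower in DKO cells included secreted and signalling proteins with no list in common, several of them on chromosome 8, as given below. Cacna2d2, a subunit of voltage-gated calcium channels, was at 8.23 and 8.27 against 6.29 and 6.21 and fell 4.02-fold (−2.01 ± 0.13, SE, limma adjusted p = 1.38e-06), although its 2 other probe sets gave −0.20 and −0.12 and with the mean of all 3 it was at −0.77 and not called. Pdgfrl, which resembles the ligand-binding part of the PDGF receptor, was at 8.49 and 7.53 against 6.14 and 6.13 and fell 3.67-fold (limma adjusted p = 0.00641). It was the 1 called gene of 20 receptors and ligands of the Flk1, PDGF and Kit families. Kitl, encoding stem cell factor, was at 9.24 and 6.15 in WT and at 10.17 and 9.19 in DKO cells and did not pass (limma adjusted p = 0.217, or 0.0351 and a call with the replicate block). Rnase4, a secreted ribonuclease (−1.72), fell too. F3, tissue factor (−1.76), Lzts1, a leucine zipper protein (−2.21), Gramd4 (−1.78) and Cyba, the p22 subunit of NADPH oxidase (−1.64), were called lower, and without the transgenic DKO array their differences were −1.30, −2.06, −1.30 and −1.25 and were not called. F3 was also not called without the parental WT array (−1.24), and Lzts1 was at −1.40 without the transgenic WT array. Has3, a hyaluronan synthase, was at 6.44 and 7.76 against 5.32 and 5.65 (−1.62), and leaving out any array but the parental WT array ended its call (−1.78 to −0.96). Cbln1, a secreted synaptic organiser (−1.56), was not called without the transgenic DKO array (−0.93) or the transgenic WT array (−1.13).

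The basement membrane collagens Col4a1 and Col4a2, which lie head to head on chromosome 8 and whose promoter windows overlap, were both lower. Col4a1 was at 11.92 and 11.87 in WT and at 11 and 10.72 in DKO cells, a decrease of 2.05-fold (limma adjusted p = 0.0103). Col4a2 was at 10.47 and 9.54 against 9.07 and 8.23 and fell 2.55-fold (limma adjusted p = 0.0375). Without the transgenic DKO array the differences were −0.90 and −0.93 and neither was called, and Col4a2 was also lost without the parental WT array (−0.89). With the mean of its probe sets Col4a1 differed by −0.79 and was not called. They were the 2 called genes of 37 collagen and matrix genes and of 29 primitive, visceral and parietal endoderm genes.

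Signalling lists held few calls, as did all genes, of which 0.698% were called. None of 42 Wnt, 27 BMP, 16 Nodal and activin or 21 Notch genes passed, with medians of −0.02, −0.12, −0.20 and −0.04. Nodal was at 11.12 and 11.66 against 9.74 and 10.87 (−1.08 ± 0.32, limma adjusted p = 0.126, or 0.0236 and a call with the replicate block), and Lefty1 (−1.21 ± 0.33) and Fst (−1.28 ± 0.35) did not pass (limma adjusted p = 0.101 and 0.0976). Bmp4 was at 10.95 and 7.84 in WT and at 10.99 and 9.53 in DKO cells, so that both parental arrays lay above both transgenic ones. Fgfr3, an FGF receptor (1.44), was called higher, but not without the transgenic WT array (0.93), without the parental DKO array (1.18) or with the mean of its probe sets (0.87). Hoxd1 (1.59) was the 1 called gene of 33 Hox genes, and was at 0.96 without the parental DKO array. Cyp26a1, which degrades retinoic acid, was lower (−1.19), but not without the transgenic DKO array (−0.92) or the transgenic WT array (−1.08). Ncam1, a neural adhesion molecule (−1.53), was lower, and not called without the transgenic DKO array (−1.15) or with the mean of its probe sets (−0.59). Of the 39 lists 20 held no called gene. The 2 lists that the study had picked on other arrays, as responding strongly to Gata4 in DKO cells, held 50 and 38 measured genes, none of them called here, with medians of −0.13 and −0.08. At the share of all genes, lists of these sizes would hold few calls or none, so that an empty list says little.

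The line types gave unequal accounts of the genotype difference. In the parental pair 0.863% of genes were at least 2-fold higher and 1.88% at least 2-fold lower in DKO cells, a count of 157 and 342. In the transgenic pair the shares were turned, 3.19% higher and 1.21% lower, or 580 and 221 genes. At least 2-fold in both pairs were 65 genes higher and 37 lower, and 64 genes were at least 2-fold apart in opposite directions. Of those 64, 58 were lower in the parental and higher in the transgenic pair. Of the 72 genes called higher, 53 were at least 2-fold apart in the parental and 69 in the transgenic pair, and of the 55 called lower, 38 and 46. Over all genes the differences of the pairs correlated at r = 0.21, a description across genes, which are not independent. The parental WT array correlated better with the parental DKO array (r = 0.987) than with the transgenic WT array (r = 0.979). The parental arrays were also scanned on another day and hybridised to another chip lot than the transgenic arrays, so that line type, scan day and chip lot cannot be told apart.

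**Figure D3:**
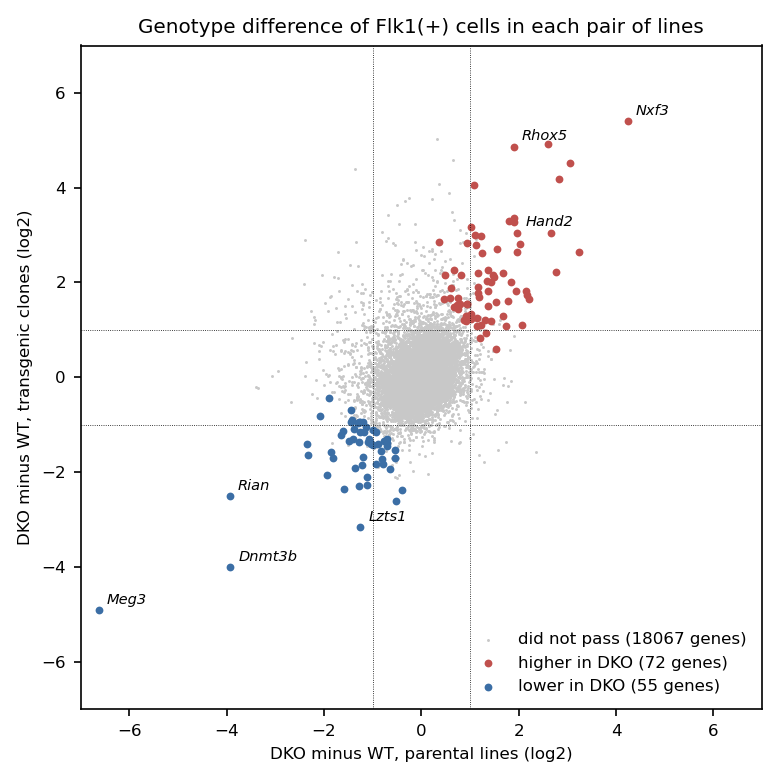
Difference DKO minus WT (log2) of each gene in the transgenic pair (vertical axis) against that in the parental pair (horizontal axis), with genes called higher in red, those called lower in blue and dotted lines at a 2-fold difference. All 127 called genes have the same sign in both pairs, Meg3 at −6.63 and −4.92 and Nxf3 at 4.24 and 5.40, while many genes that were not called lie off the diagonal.

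Calls that did not rest on a single array were 31 of the 72 higher and 16 of the 55 lower, counted as called without each of the 4 arrays in turn. Without the transgenic DKO array 38 of the higher and 20 of the lower genes kept their call. Nxf3, Tex19.1, Slc25a31, Rpl39l, Pdha2, Rhox13, Ddx4, Sohlh2, Gpat2, Tex11, Asz1, Meg3, Dnmt3b, Rian, Dnmt3a and Zdbf2 were among those that kept theirs without any one array.

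Chromosome 8 held 17 of the 55 lower genes, 30.9% of them beside 5.17% of all placed genes, and 5 of the higher genes. Lzts1, Pdgfrl, Cyba, Has3, Cbln1, Col4a1 and Col4a2 were among the 17, and Hand2 was among the 5. Chromosome X held 9 of the 72 higher genes (12.5% beside 3.42%) and no lower gene. Chromosome 11 held 9 higher genes (12.5% beside 8.0%). The 17 lower genes of chromosome 8 were at least 2-fold lower in the parental pair in 11 cases and in the transgenic pair in 16. None of them was called lower in ES cells, 2 were in PE, 3 in Dex- and 5 in Dex+ cells. Over all 499 chromosome 8 genes with a mean of at least 7, the median difference less that of the other autosomes was −0.12 in Flk1(+) cells, −0.05 in the parental and −0.20 in the transgenic pair. It was −0.18 in ES and in PE cells, −0.19 in Dex- and −0.23 in Dex+ cells, so that the shift was no smaller in the other states. Chromosome 11, with 756 such genes, was shifted by 0.19 in all, by −0.01 in the parental pair and by 0.41 in the transgenic pair. Chromosome 11 was shifted by 0.22 in ES cells, 0.37 in PE, 0.37 in Dex- and 0.39 in Dex+ cells, whose arrays all came from the transgenic clones. Between same-numbered arrays the shift was uneven in ES cells, 0.11 and 0.34, and ran from 0.33 to 0.40 in PE, Dex- and Dex+ cells. All 9 higher genes of chromosome 11, Tex19.1, Meis1, Tbx2 and Myl7 among them, had the larger difference in the transgenic pair. The number of chromosomes in the lines was not measured, and its part in these results was not tested. With the genes of both chromosomes left out, 57 genes were higher and 35 lower, an alternative chosen after seeing the data.

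**Figure D4:**
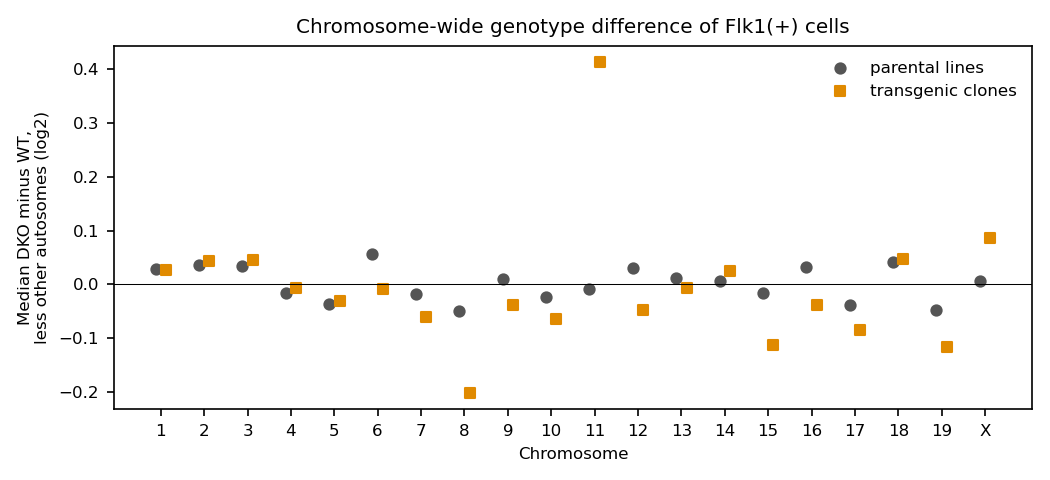
Median difference DKO minus WT (log2) of each chromosome less that of the other autosomes, for genes with a mean of at least 7, in the parental and the transgenic pair of Flk1(+) arrays. Chromosome 11 stands at −0.01 in the parental and 0.41 in the transgenic pair and chromosome 8 at −0.05 and −0.20.

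Called neighbours less than 1 Mb apart formed 19 pairs, 13 of them in the same direction. Besides Meg3 with Rian, Col4a1 with Col4a2 and Rhox5 with Rhox13 they included Rbm24 (1.31) and Cap2 (1.70), 70.8 kb apart on chromosome 13 and named after their values were seen. Rbm24, an RNA-binding protein of muscle and heart, had other probe sets at −0.11 to 0.15, while Cap2, an actin regulator, had 1.42 in its other one. On chromosome 8 Cyba (−1.64), the mechanically gated channel Piezo1 (−1.07) and Trappc2l (−1.17) lay next to each other. Piezo1 was at −0.92 and not called without the parental DKO array, and Trappc2l fell below the 2-fold limit without the parental WT (−0.97) or the transgenic DKO array (−0.99). The Y-linked Uba1y (1.93) and Kdm5d (1.82) rose together. Kdm5d was not called without the transgenic DKO array (1.39), and its other probe sets gave −0.25 and −0.0047. With the mean of the probe sets Kdm5d (0.52) and Rbm24 (0.27) were not called, and Uba1y was at 1.17.

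Promoters of called genes were described without a test. A RefSeq promoter matched 14369 of all genes, 59 of the 72 higher and 36 of the 55 lower. The median number of CpG sites in 300 bases was 15 for the higher, 25 for the lower and 18 for all genes, and the observed over expected CpG ratio was 0.636, 0.797 and 0.699. The E-box CACGTG was found, on either strand, in 10 of the 59 higher (16.9%), 5 of the 36 lower (13.9%) and 9.24% of all promoters. TCCCGC, the core of the E2F6 motif, was found on either strand in 28.8%, 38.9% and 31.5%. The promoters shown run from 5 CpG sites in Rhox5 to 38 in Ddx4, both higher in DKO cells. Those of all called genes ran from 0 to 61.

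The other states, which share no array with the Flk1(+) comparison, showed how far the genotype difference was common to them. Their arrays all came from the transgenic clones, while Flk1(+) replicate 1 of each genotype came from a parental line. Scan days and chip lots were not matched between states either. A difference between Flk1(+) cells and another state can therefore not be fully told apart from one of line type or batch. The share of all genes called higher in DKO cells was 1.12% in ES cells, 1.13% in PE, 3.51% in Dex- and 4.81% in Dex+ cells, and that called lower was 0.269%, 0.824%, 2.34% and 4.83%. Dex- and Dex+ cells are sorted Flk1(+) cells cultured for another 4 days without or with 100 nM Dex, and PE is primitive endoderm made from ES cells with Dex. Of the 72 genes higher in Flk1(+) cells, 20 (27.8%) were also called higher in ES cells, 22 (30.6%) in PE, 40 (55.6%) in Dex- and 39 (54.2%) in Dex+ cells. Of the 55 lower genes 6 (10.9%), 7 (12.7%), 12 (21.8%) and 14 (25.5%) were called lower. All these shares were above those of all genes, and the shares were smaller for the lower than for the higher genes in each state. The median difference of the higher genes was 1.61 in Flk1(+) cells and 0.40, 0.39, 1.48 and 1.36 in ES, PE, Dex- and Dex+ cells. For the lower genes it was −1.27 in Flk1(+) cells and −0.14, −0.29, −0.45 and −0.41.

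Called higher in all 5 states were 11 genes, all in the germline or testis lists except Gm364, Kdm5d and Rec114: Nxf3, Tex19.1, Slc25a31, Pdha2, Rhox13, Sohlh2, Gpat2 and Asz1 were the others. None of the 55 was lower in all 5. Meg3 was at 11.61 and 11.67 in WT ES cells against 8.20 and 9.62 in DKO ES cells. In PE it was at 9.19 and 9.62 against 9.43 and 10.39, where its difference (0.51) did not pass. Ddx4 was at 8.79 and 8.72 in WT ES and at 9.03 and 8.87 in DKO ES cells (0.19). In Dex- cells it was at 3.42 and 3.55 against 8.76 and 8.66 (5.22). Its level was therefore high in ES cells of both genotypes, and lower in WT Flk1(+) cells than in DKO Flk1(+) cells.

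**Figure D5:**
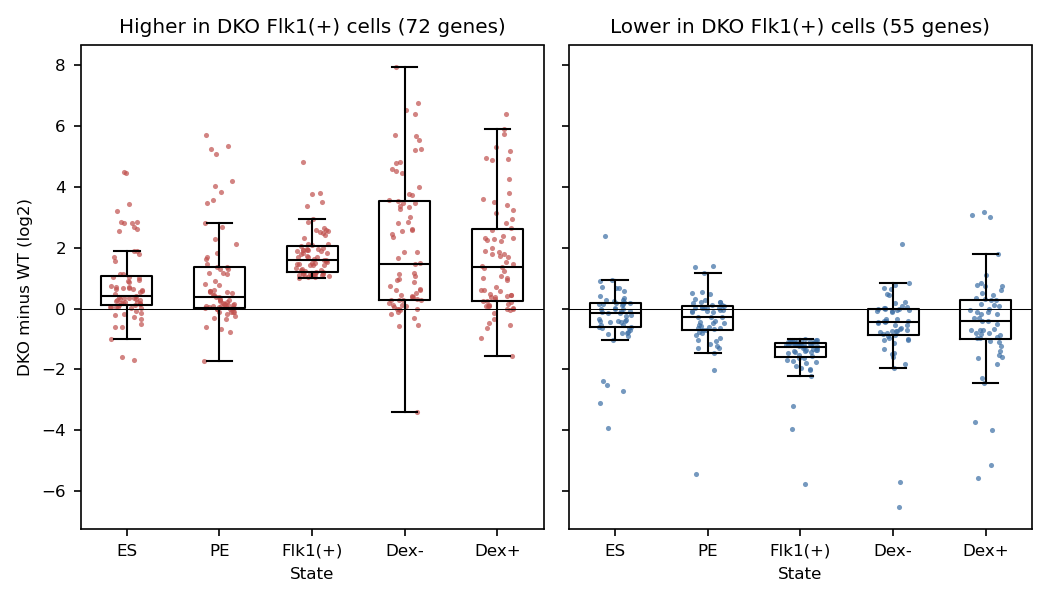
Difference DKO minus WT (log2) of the 72 higher and the 55 lower genes in ES cells, PE, Flk1(+), Dex- and Dex+ cells. Boxes span the quartiles with a line at the median, and whiskers reach the farthest value within 1.5 box lengths. The medians of the higher genes were 0.40, 0.39, 1.61, 1.48 and 1.36, and those of the lower genes −0.14, −0.29, −1.27, −0.45 and −0.41. The Flk1(+) boxes hold the values by which the genes were chosen.

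Called in the same direction in none of the other states were 25 of the 72 higher genes, Hand2, Isl1, Hoxd1, Fgfr3 and Cap2 among them. The same held for 31 of the 55 lower genes, among them Lzts1, Cacna2d2, Pdgfrl, F3, Gsc, Has3, Col4a1 and Col4a2. Genes called in the opposite direction in another state, such as Pdgfrl in ES cells, are included. The difference between states was itself tested for each gene, although the states also differ in line type, as given above. Across all genes the DKO minus WT difference was larger in Flk1(+) than in ES cells for 0.203% and smaller for 0.588%, and larger than in Dex- cells for 1.08% and smaller for 1.82%. Among the 72 higher genes it was larger than in ES cells for 15 and smaller for none, and larger than in Dex- cells for 11 and smaller for 18. Among the 55 lower genes the difference was more negative than in ES cells for 16 and than in Dex- cells for 16, and less negative for none. Both sets were chosen for a large difference in Flk1(+) cells, which the comparison uses again, so that the choice favours larger differences there and these counts are a description. Cacna2d2 differed by −0.10 in ES and −0.02 in Dex- cells, and its Flk1(+) difference was lower by 1.90 ± 0.18 and 1.99 ± 0.18 (SE, limma adjusted p = 0.000146 and 2.33e-05). Its WT values outside Flk1(+) cells were between 5.22 and 5.60. For Hand2 the difference exceeded that in ES cells by 2.17 ± 0.55 and that in Dex- cells by 2.09 ± 0.55 and neither test passed (limma adjusted p = 0.106 and 0.0526). Hand2 was at 9.20 and 9.06 in WT and at 9.65 and 9.46 in DKO Dex- cells, levels between those of WT and DKO Flk1(+) cells.

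Some genes were called in opposite directions in 2 states, and not all are named here. Of the 55 lower genes 1 was called higher in ES cells, 2 in PE, 1 in Dex- and 5 in Dex+ cells. The shares of all genes were 1.12%, 1.13%, 3.51% and 4.81%. Of the 72 higher genes 2, 1, 1 and 1 were called lower in these states, beside 0.269%, 0.824%, 2.34% and 4.83% of all genes. Pdgfrl, lower in DKO Flk1(+) cells, was at 5.57 and 5.71 in WT ES cells against 8.60 and 7.47 in DKO ES cells (2.40). The helicase D1Pas1 (−1.69) and Exoc3l (−1.60), both higher in DKO Flk1(+) cells, were lower in DKO ES cells. Exoc3l was not called in Flk1(+) cells without the transgenic WT (0.94), the parental DKO (1.05) or the transgenic DKO array (1.22). Zfp711, an X-linked zinc finger gene, was higher in Flk1(+) cells (1.42) and lower in Dex- cells (−3.39), and was lost in Flk1(+) cells without the parental WT (0.94) or the transgenic DKO array (1.27). Mpzl2, an epithelial adhesion molecule, was lower in Flk1(+) cells (−1.06) and higher in Dex- (2.13) and Dex+ cells (3.0), and was not called in Flk1(+) cells without the parental WT (−0.82), the parental DKO (−0.94) or the transgenic DKO array (−1.19). With the mean of the probe sets Zfp711 (0.71) and Mpzl2 (−0.71) were not called in Flk1(+) cells. Mest was higher in Flk1(+) cells and lower in PE (−1.74) and Dex+ cells (−1.57).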

How the data were processed

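Expression was measured on 20 Affymetrix mouse arrays, 2 for each of 10 groups, of which 4 are Flk1(+) mesoderm. The authors deposited log2 values that were background corrected, quantile normalized and summarized with RMA (version not given in the sources used here, nor whether all arrays were summarized together). The number of arrays limits the precision.

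Of 45101 probe sets, 34958 had 1 gene symbol in the platform annotation, 932 several and 9211 none. For a gene with several probe sets the brightest on average was kept, which left 18194 genes, and 18033 of them were placed on GRCm38.p6. Group means were estimated over all 20 arrays in limma 3.58.1 with R 4.3.3 (10 residual and 4.54 prior degrees of freedom), and the script was tested on simulated data. A call needed an adjusted p under 0.05 and a 2-fold change, and rose and fell are used only of calls. SAM, which the study used, was not run. Named were the 15 largest increases and 15 largest decreases with separated arrays (clone and locus names left out), up to 6 members of each list with the largest change, Dnmt3a, Dnmt3b, Gata4, Kdr and Pdgfra in every array, and genes that a small count singled out. Genes outside this rule are said to be so. Members and lists were chosen with earlier results of these data known. Lists were described by counts and medians, and no list was tested.

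Replicate number coincides with line type, scan day and chip lot in the Flk1(+) arrays, and deviations of same-numbered arrays from their group means correlated at 0.31 over genes. Alternatives were the replicate block, fits of only the 4 arrays, scan day and chip lot as blocks, single line types, each array left out, other probe set choices, a filter on low values, centring, another variance model and no fold threshold.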

Additional observations from a re-analysis of the deposited data

Results flagged for a closer look

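For the genes below the DKO minus WT difference in Flk1(+) cells differed from that in ES cells or in Dex- cells by a limma test of the difference itself, with p-values adjusted over all genes. Genes were named for their Flk1(+) difference, which the test uses again. The arrays of ES and Dex- cells all came from the transgenic clones, so that line type enters these differences as well. Values are log2, the Flk1(+) difference less that of the other state.

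Against ES cells, the difference of germ cell and testis genes was larger in Flk1(+) cells for D1Pas1 (3.37), Psma8 (2.53), Hsf2bp (2.41), Ddx4 (2.40), Sycp3 (2.28), Rpl39l (2.01), Tex11 (1.60) and Stk31 (1.35), and also for Exoc3l (2.73). It was smaller for Pdgfrl (−4.28), Lzts1 (−2.89), F3 (−2.70), Cbln1 (−2.12), Col4a2 (−2.03), Cacna2d2 (−1.90), Gsc (−1.90) and Col4a1 (−1.76).

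Against Dex- cells, the difference was smaller in Flk1(+) cells for the germ cell and testis genes Trap1a (−5.35), Asz1 (−3.39), Sohlh2 (−3.21), Tex19.1 (−3.01), Ddx4 (−2.64), Stk31 (−2.52), D1Pas1 (−2.30), Rpl39l (−1.85) and Psma8 (−1.82), and also for Asb4 (−3.13) and the Y-linked Uba1y (−2.67). Of genes lower in DKO Flk1(+) cells the difference was more negative there for Mpzl2 (−3.19), Lzts1 (−2.89), F3 (−2.60) and Dnmt3b (−2.37). It was also more negative there for Ncam1 (−2.30), Cacna2d2 (−1.99), Gsc (−1.28) and Zdbf2 (−1.24). Mpzl2 was called higher in Dex- cells, and a more negative difference here does not imply a decrease in Dex- cells. Of genes higher in DKO Flk1(+) cells the difference was larger there for Zfp711 (4.81), Cap2 (2.26), Isl1 (1.99), Fgfr3 (1.76) and Rbm24 (1.33). Zfp711 was called lower in Dex- cells, and a larger difference here does not imply an increase in Dex- cells.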

How the results depend on the processing

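The calls depended most on which arrays entered the limma fit. Without one array at a time, the genes higher in DKO Flk1(+) cells numbered 62 to 310 (72 with all arrays) and those lower 35 to 269 (55). Genes with a larger DKO minus WT difference than in ES cells numbered 59 to 127 (37), with a smaller one 101 to 340 (107), with a larger one than in Dex- cells 186 to 403 (197) and with a smaller one 350 to 566 (332). The lone array of a group is then assumed to vary like the other groups. In the same order, the transgenic pair alone gave 403, 148, 153, 163, 399 and 370, and the parental pair alone 71, 159, 89, 324, 240 and 581. The replicate block for the line type gave 130 and 84, and 68 and 164 against ES cells, and every call made without the block remained. Chip lot as a block gave 123 and 84, and 79 and 175 against ES cells. With only the 4 Flk1(+) arrays limma called 0 and 0 genes with or without the block, although 474 and 433 had an unadjusted p under 0.05 without it and 890 and 760 with it. Leaving out the lowest 40% of genes gave 44 higher genes, and 10 and 25 against ES cells. The lower genes numbered 98 with no fold threshold, 34 with the mean of a gene's probe sets and 35 without chromosomes 8 and 11, which was chosen after seeing the data. None of the 61 named called genes changed sign under an alternative run, but 4 of 21 named genes that were not called did, namely Aplnr, Bmp4, Dlk1 and Pdgfra (Bmp4 from −0.69 to 2.42). The balance of calls also turned: lower genes outnumbered higher ones without the transgenic WT array (269 and 80) and in the parental pair, and larger differences outnumbered smaller ones against Dex- cells without the parental WT array (403 and 350) and in the transgenic pair. The cause of these changes was not tested. No detection limit was used, so folds that start from dim probe sets are imprecise.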
